A study of Mus musculus with 22 samples.

Results

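The experiment crossed a model allergen with farm particles, and the analysis asked which lung genes responded to both together with less or more than the sum of the separate responses. Lung RNA of C57BL/6 mice, taken from the right caudal lobes, was sequenced in 22 libraries, and all 22 libraries of the series were used. They were chosen by their labels. The 4 groups were saline without particulate matter (PM, 6 libraries), saline with PM (5), ovalbumin (OVA) without PM (6) and OVA with PM (5), and they are named saline alone, PM alone, OVA alone and both (the joint group) where single levels are given. PM was airborne dust of a goat farm, and 3 µg was studied, and OVA is an egg white protein used to bring about allergic airway inflammation. By the sample labels the arms differ in the agent of sensitisation, whereas the extraction protocol speaks of OVA/Sal and OVA/OVA mice, so that mice of the saline arm may also have met OVA. The labels say nothing of the timing of PM. All groups were of 1 strain, described as wild type and old, and neither sex nor an age in weeks was stated.

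The interaction compared here is the effect of PM in the OVA arm minus the effect of PM in the saline arm, on the log2 scale. A value of 0 means that the fold changes of the separate exposures multiply. A negative value means that the level with both exposures lay below that product (below additive), and a positive value that it lay above. Genes raised by each exposure thus rose less than that where the value is negative, and genes lowered by each fell more. Library totals spanned 0.302 M to 28.01 M counts (median 12.5 M). Under 2 M lay 3 libraries, namely replicates 4 and 5 of the joint group and replicate 4 of OVA alone. Levels are given in CPM, counts scaled to a library of 1 M with trimmed-mean (TMM) factors. Alveolar type 2 cell genes, which mark lung tissue, summed to 34655 to 71483 CPM over the 22 libraries. The design text states 5 samples per group, while the groups without PM held 6 libraries each. Nothing in the labels ties each library to an animal of its own, and p-values therefore reflect the spread among these samples, which may be technical. PM libraries are numbered in a different series from the others, and within an arm that difference cannot be told apart from PM. A shift of equal log2 size in both arms cancels in the interaction.

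Several libraries stood apart. Replicate 2 of OVA alone and replicate 4 of the joint group held mucous cell genes at a summed 954 and 644 CPM, while the other 9 libraries of that arm held 5067 to 9430 CPM. Both lay above the highest library of saline alone (305 CPM). Replicate 4 of the joint group lay within the range of PM alone (124 to 713 CPM). Heart muscle genes summed to 571 and 557 CPM in replicates 5 and 6 of saline alone and to 508 CPM in replicate 5 of OVA alone. They summed to 108 and 160 CPM in replicates 3 and 4 of saline alone and to 48.7 CPM in replicate 4 of OVA alone. The other libraries without PM lay between these sums. Replicates 5 and 6 were the closest pair of saline alone, with a chi-square of 3.49 per degree of freedom, which is still above sampling noise. When these 2 libraries were summed into 1, the genes called for PM in the saline arm fell from 1949 to 461, and the interaction kept 10 of its 14 calls.

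Epithelial cells and macrophages that sense microbial products switch on NF-kB, a transcription factor, and release chemokines that attract neutrophils and monocytes, together with acute-phase and iron-binding defence proteins. Interferons switch on a separate set of antiviral genes, and the type 2 cytokines of allergy drive mucous cell genes, eotaxins and chitinase-like proteins.

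Of 14942 genes tested, 14 passed an adjusted p of 0.05 for the interaction (edgeR quasi-likelihood test with Benjamini-Hochberg adjustment), which is 0.0937% of the genes tested. In whole tissue, fewer cells of a type and less RNA per cell cannot be told apart. All 14 lay below additive, and 0 (0%) lay above. The called genes were the chemokine genes Cxcl1, Cxcl3, Cxcl5, Cxcl13 and Ccl7, the acute-phase genes Saa3, Orm1 and Orm2, the defence and protease inhibitor genes Lcn2 and Serpina3n, the metabolic enzyme gene Irg1, the cytokine gene Tnf, the interferon-stimulated gene Rsad2 and the metalloreductase gene Steap4. Their interactions ran from -5.93 to -1.17, with a median of -2.45, beside a median of 0.01 over all genes tested and 48.3% of all genes below 0. At an unadjusted p under 0.05 there were 571 genes, of which 360 lay below and 211 above additive. DESeq2 called 24 genes, all below additive, and limma voom with quality weights called 45, of which 2 (Adnp2 and Myh7) lay above. The lowest unadjusted p among genes above additive belonged to Zfp771 (0.71 ± 0.18, SE, edgeR adjusted p = 0.331).

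The count depended on single libraries. Leaving out 1 library of saline alone gave 8 calls for replicate 1, 9 for replicate 5 and 9 for replicate 6. Leaving out 1 library of PM alone gave 9 for replicate 1 and 8 for replicate 5. Leaving out replicate 6 of the joint group gave 8, and leaving out replicate 2 of OVA alone gave 27, of which 1 (Kcne2) lay above additive. Without both libraries low in mucous cell genes 22 genes were called, among them all 14, and without the 3 libraries under 2 M counts 12 were called, 10 of them among the 14. Just inside the threshold lay Tnf (adjusted p = 0.0366) and Cxcl5 (adjusted p = 0.0465), and just outside lay Zbp1 (-0.95, adjusted p = 0.0903) and Tgtp1 (-0.97, adjusted p = 0.0921), all by edgeR.

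**Figure D1:**
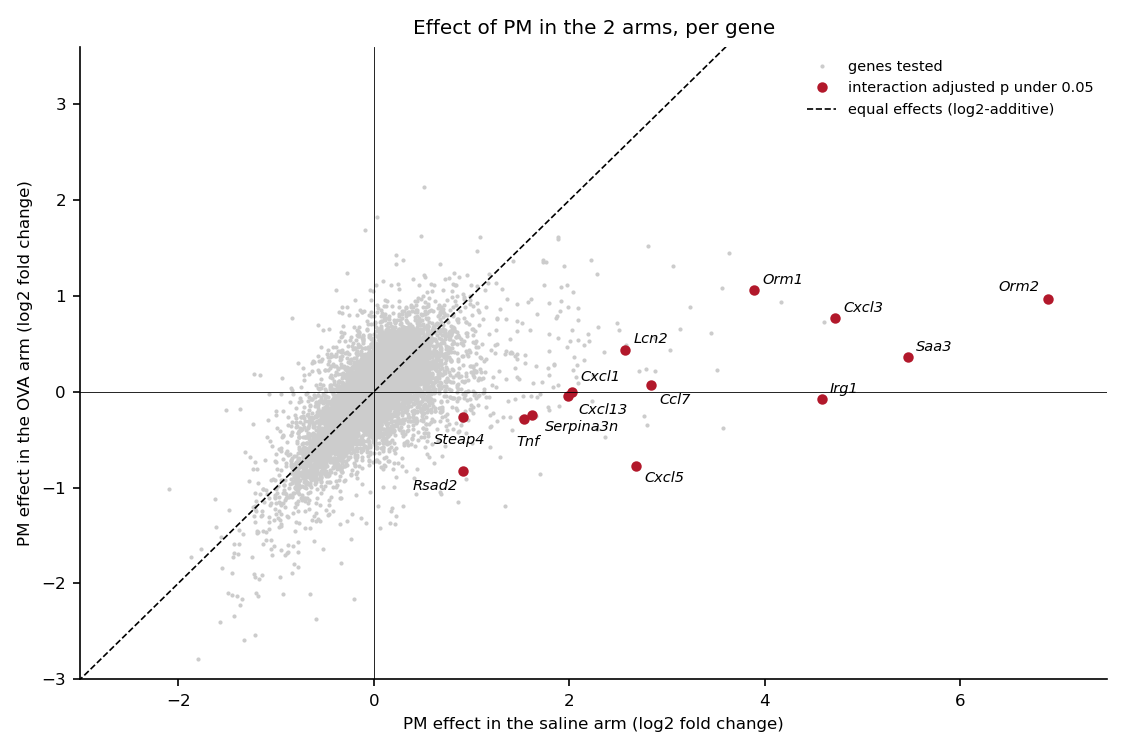
Log2 fold change with PM in the saline arm (horizontal axis) and in the OVA arm (vertical axis), with 1 grey point per gene tested, the 14 genes called for the interaction in red and a dashed line where both effects are equal. The called genes lie to the right of the dashed line, with effects of 0.91 to 6.90 in the saline arm and of -0.83 to 1.06 in the OVA arm.

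The interaction is built from 4 separate effects, which came from the same fit. PM in the saline arm called 13% of all genes tested (4.56% higher, 8.49% lower) and PM in the OVA arm 10.9% (3.85% higher, 7.04% lower). OVA without PM called 27.7% (15.1% higher, 12.6% lower) and OVA with PM, against PM alone, 17.4% (10.8% higher, 6.57% lower). All 14 called genes rose with PM in the saline arm, where 4.56% of all genes tested rose, and in all 14 the libraries with PM lay above all those without, as they did in 2.66% of all genes tested. All 14 also rose with OVA in the absence of PM, where 15.1% of all genes tested rose, and in 13 of them, Tnf being the exception, all libraries of OVA alone lay above those of saline alone, as they did in 6.98% of all genes tested. In each of the 33 alternatives that tested all 14 genes, all 14 were called higher in both of these comparisons. Since the genes were picked on the interaction, which contains these effects, their separate effects describe them and are no further test.

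On top of OVA, PM left 12 of the 14 genes without a call. Since 10.9% of all genes tested were called there, that count lies near the share of all genes. Cxcl3 was higher with PM in the OVA arm (3.85% of all genes tested were called higher) and Rsad2 was lower (7.04% of all genes tested were called lower). The median effect of PM over the 14 genes was 2.63 in the saline arm and -0.02 in the OVA arm, and the median effect of OVA was 2.79 without PM and 0.06 with PM. In 7 genes (Saa3, Cxcl5, Ccl7, Lcn2, Cxcl1, Serpina3n and Tnf) the joint group differed from neither single-exposure group by this test. Of all genes tested, 10.9% were called against OVA alone and 17.4% against PM alone, so that most genes differed from neither. In Orm2, Irg1 and Orm1 the joint group was lower than PM alone, and in Cxcl13 and Steap4 it was higher than PM alone. The libraries of the joint group overlapped with those of OVA alone and with those of PM alone in all 14 genes. Of all genes tested, 3.48% had no overlap with OVA alone and 12.1% had none with PM alone. Overlap was thus common to most genes and does not set the 14 apart.

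**Figure D2:**
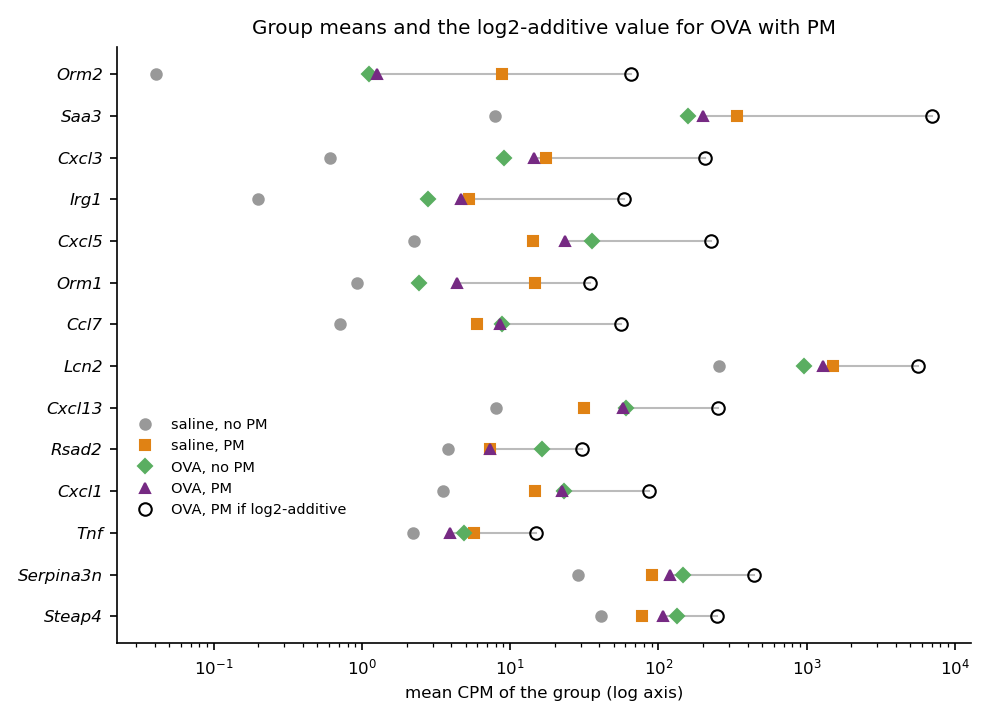
Group means in CPM (logarithmic axis) of the 14 called genes in the 4 groups, with an open circle at the value that OVA with PM would have if the fold changes of PM alone and OVA alone multiplied, and a grey line from there to the mean measured. The measured means (triangles) lie beside the single-exposure means, 2.3-fold (Steap4) to 51.9-fold (Orm2) below the open circles.

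For the promoter sequences of the called genes, RefSeq entries of the build GRCm38.p6 were found for 11 of the 14, with Irg1 under its other symbol Acod1. Cxcl5, Orm1 and Ccl7 had none. The 250 bases before the start are shown for 4 genes that carry the main patterns described below, a pair of neutrophil chemokine genes (Cxcl3 and Cxcl1), the acute-phase gene Saa3 and the interferon-stimulated gene Rsad2. Capitals mark matches, on either strand, to the kappa-B consensus (the binding motif of NF-kB), to the AP-1 motif TGANTCA or to the interferon-response motif GAAANNGAAA. They lie at chr5:90785851-90786100 (plus strand, Cxcl3), chr5:90890995-90891244 (plus strand, Cxcl1), chr7:46715677-46715926 (minus strand, Saa3) and chr12:26456453-26456702 (minus strand, Rsad2).
Cxcl3: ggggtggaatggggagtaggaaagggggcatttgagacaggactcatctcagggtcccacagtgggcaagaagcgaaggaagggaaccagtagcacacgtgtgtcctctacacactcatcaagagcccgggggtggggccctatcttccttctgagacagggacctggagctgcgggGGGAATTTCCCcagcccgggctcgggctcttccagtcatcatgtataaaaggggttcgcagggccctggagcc
Cxcl1: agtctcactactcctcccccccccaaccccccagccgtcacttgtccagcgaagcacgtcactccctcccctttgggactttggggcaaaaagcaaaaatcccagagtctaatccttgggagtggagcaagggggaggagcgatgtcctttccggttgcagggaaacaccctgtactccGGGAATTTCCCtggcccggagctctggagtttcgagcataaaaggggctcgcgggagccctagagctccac
Saa3: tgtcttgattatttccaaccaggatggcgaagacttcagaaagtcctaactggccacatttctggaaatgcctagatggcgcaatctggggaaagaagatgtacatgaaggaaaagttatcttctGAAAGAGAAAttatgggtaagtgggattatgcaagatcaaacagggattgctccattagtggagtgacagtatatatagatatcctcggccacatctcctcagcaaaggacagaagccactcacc
Rsad2: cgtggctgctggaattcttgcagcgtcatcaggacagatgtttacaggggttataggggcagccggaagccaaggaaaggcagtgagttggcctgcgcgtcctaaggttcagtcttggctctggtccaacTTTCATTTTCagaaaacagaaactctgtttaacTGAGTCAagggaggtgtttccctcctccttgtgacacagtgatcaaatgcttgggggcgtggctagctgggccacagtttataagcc
In Cxcl3 and in Cxcl1 the run of capitals holds 2 overlapping kappa-B matches, 1 on each strand. The kappa-B consensus was found in 3 of 11 called genes (Cxcl3, Cxcl1 and Steap4) and in 3.75% of 27025 promoter windows of the same length. The interferon-response motif was found in 2 (Saa3 and Rsad2) and in 3.04% of all windows. AP-1 was found in 2 (Orm2 and Rsad2) and in 6.87% of all windows, the STAT motif TTCNNNGAA in 1 (Steap4) and in 7.18%, and the C/EBP motif TTNNGNAA, which overlaps the interferon-response match in Saa3 and Rsad2 and a kappa-B match in Steap4, in 8 and in 36.9%. A match is a run of letters and was not tested for binding.

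Among the called genes, Orm2 and Saa3 of the acute-phase group had the lowest interactions. Saa3 encodes a serum amyloid A made outside the liver by macrophages and epithelial cells (minus strand, 46711998 to 46715700 on chromosome 7, GRCm38, GENCODE M21, as for the positions below). Its level was 5.21 to 11.9 CPM (median 7.44, 6 libraries) with saline alone and 496, 212, 526, 358 and 108 CPM in the 5 libraries of PM alone. With OVA alone the level was 65 to 313 CPM (median 145, 6 libraries), and with both it was 159, 218, 131, 378 and 110 CPM. All libraries of the other 3 groups lay above those of saline alone, and these 3 groups overlapped with each other. PM raised Saa3 by 5.46 ± 0.45 (log2, SE) in the saline arm (edgeR adjusted p = 5.34e-08), and the effect in the OVA arm was 0.36 (95% interval -0.42 to 1.15, edgeR adjusted p = 0.545). The interaction was -5.10 ± 0.58 (edgeR adjusted p = 2.6e-05), and multiplied folds would have given 7037 CPM in the joint group where 199 ± 108 CPM (SD, n = 5) was measured. Adding the rises in CPM would have given 490 CPM.

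Orm1 and Orm2 encode orosomucoids, acute-phase glycoproteins of plasma. Orm2 (63362449 to 63365878 on chromosome 4) had 5 counts in all with saline alone, where 4 of 6 libraries were at 0, so that its fold changes rest on few counts and depend on the method. Its level was 16.1, 6.35, 11.3, 6.65 and 3.93 CPM with PM alone, 0.3 to 2.32 CPM (median 0.934) with OVA alone, and 1.43, 3.98, 0, 0 and 0.884 CPM with both. The 2 libraries at 0 in the joint group were the shallow replicates 4 and 5. The joint group overlapped with PM alone only at its highest library, and OVA with PM lay 2.19 below PM alone (log2, SE 0.49, edgeR adjusted p = 0.00286). Orm1 (63344560 to 63348163 on the same chromosome) stood at 24.3, 10.1, 17.8, 16.6 and 5.16 CPM with PM alone, at 1.8 to 2.97 CPM (median 2.45) with OVA alone and at 4.07, 8.57, 3.35, 1.96 and 3.85 CPM with both, and its interaction was -2.83 ± 0.52 (SE, edgeR adjusted p = 0.02). For both genes the joint group sat nearer to OVA alone than to PM alone. The 2 genes are near-identical neighbours, and how the counting split reads between such copies is not given, so that their separate values are uncertain. The same holds for Saa1 and Saa2. Saa1, a relative of Saa3 which did not pass for the interaction, was higher with PM in the saline arm (3.51, edgeR adjusted p = 0.00123) and not called in the OVA arm (0.23, edgeR adjusted p = 0.833).

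Lcn2 encodes lipocalin 2, which binds bacterial iron carriers (32384633 to 32388252 on chromosome 2). It stood at 196 to 390 CPM (median 241) with saline alone and at 2154, 1010, 1787, 1738 and 887 CPM with PM alone. It stood at 537 to 1697 CPM (median 968) with OVA alone and at 1180, 1321, 888, 1787 and 1265 CPM with both. All libraries of saline alone lay below those of the other 3 groups, which overlapped. The interaction was -2.14 ± 0.38 (SE, edgeR adjusted p = 0.014), with an effect of PM of 2.57 in the saline arm and of 0.44 (95% interval -0.11 to 0.98) in the OVA arm. Serpina3n, a serine protease inhibitor (104406729 to 104414329 on chromosome 12), had an interaction of -1.86 ± 0.36 (SE, edgeR adjusted p = 0.0356) and group means of 28.7, 90.8, 147 and 120 CPM in the order saline without PM, saline with PM, OVA without PM and OVA with PM. Steap4, a metalloreductase of iron and copper uptake (7960457 to 7982213 on chromosome 5), had the smallest interaction of the called genes (-1.17 ± 0.23, SE, edgeR adjusted p = 0.0356). It stood at 78.1, 73.3, 94.7, 89.3 and 50.6 CPM with PM alone, at 74.9 to 159 CPM (median 146) with OVA alone and at 107, 122, 87.2, 113 and 111 CPM with both. The mean of the joint group (108 CPM) lay between those of PM alone (77.2 CPM) and OVA alone (133 CPM), and it was 0.53 above PM alone on the log2 scale (edgeR adjusted p = 0.0317).

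The gene lists given here and below were chosen with earlier results of these data known. Their counts therefore describe the lists and are no further test. Of 16 measured genes of acute-phase and secreted airway defence, 4 were called for the interaction, and 15 lay below 0. The median was -0.68 beside 0.01 over all genes, of which 48.3% lay below 0 and 0.0937% were called. PM raised 10 of the 16 in the saline arm and 1 in the OVA arm, beside 4.56% and 3.85% of all genes tested. That 1 was Wfdc21, a small secreted inhibitor-like protein, which rose in both arms (1.73 and 1.36, edgeR adjusted p = 0.00288 and 0.0157) and whose interaction was -0.36 ± 0.45 (SE, edgeR). OVA without PM raised 10 and lowered 1, beside 15.1% and 12.6% of all genes tested. OVA on top of PM raised 3 and lowered 3, beside 10.8% and 6.57%. Pigr, which carries IgA across epithelia (-1.22, adjusted p = 0.742), Cp, the copper-carrying ceruloplasmin (-0.79, adjusted p = 0.256) and Reg3g, an antibacterial lectin (-1.81, adjusted p = 1), had interactions that did not pass (edgeR).

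The chemoattractant group held the interaction with the lowest p. Cxcl3 encodes a ligand of the neutrophil receptor CXCR2 (90786103 to 90789600 on chromosome 5). It stood at 0.182 to 0.888 CPM (median 0.677) with saline alone and at 23.1, 12.1, 17.5, 24.2 and 10.6 CPM with PM alone. It stood at 5.79 to 12.7 CPM (median 9.3) with OVA alone and at 17.6, 10.8, 13.4, 14.7 and 15.7 CPM with both. The joint group lay within the range of PM alone, and 4 of its 5 libraries lay above those of OVA alone. PM raised it by 4.72 ± 0.29 (log2, SE) in the saline arm and by 0.77 ± 0.23 in the OVA arm (edgeR adjusted p = 1.68e-10 and 0.0371), and the interaction was -3.94 ± 0.38 (edgeR adjusted p = 3.26e-06). Without the 2 libraries low in mucous cell genes the effect in the OVA arm was 0.67 (edgeR adjusted p = 0.0773) and the interaction -4.05. Multiplied folds would have given 206 CPM in the joint group and added rises 25.9 CPM, where 14.4 ± 2.56 CPM (SD, n = 5) was measured.

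Cxcl1, another CXCR2 ligand (90891241 to 90893115 on chromosome 5), stood at 2.92 to 4.15 CPM (median 3.63) with saline alone and at 20.7, 12.8, 11.6, 19.7 and 8.77 CPM with PM alone. Its level was 12.4 to 34.2 CPM (median 24.6) with OVA alone and 17.2, 29.1, 16.8, 30.4 and 18.3 CPM with both, so that the joint group lay within the range of OVA alone. The effect of PM was not called in the OVA arm (-0.00, 95% interval -0.49 to 0.49), beside 2.03 ± 0.25 (SE) in the saline arm, and the interaction was -2.03 ± 0.35 (SE, edgeR adjusted p = 0.0115). Cxcl5, a CXCR2 ligand that lung epithelium makes (90759360 to 90761624 on chromosome 5), had an interaction of -3.45 ± 0.69 (SE, edgeR adjusted p = 0.0465). It stood at 16.7, 20.7, 6.7, 60.8 and 12.5 CPM in the joint group, where replicate 5 lay far above the others. The related Cxcl2, at 0.825, 4.93, 2.23 and 2.03 CPM on average in the same order of groups, did not pass (-2.32 ± 0.53, SE, edgeR adjusted p = 0.149). Cxcl1, Cxcl2 and Cxcl3 are close relatives within 1 cluster, and reads shared between them may be split in a way not given here.

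Ccl7 (82045712 to 82047525 on chromosome 11) attracts monocytes, and Cxcl13 (95956951 to 95961068 on chromosome 5) attracts B cells and organises lymphoid tissue. Ccl7 stood at 7.93, 3.22, 8.61, 8.08 and 1.97 CPM with PM alone, at 5.58 to 12.3 CPM (median 8.86) with OVA alone and at 9.96, 11.9, 0, 14.7 and 5.94 CPM with both, and the library at 0 was the shallow replicate 4. Its interaction was -2.77 ± 0.51 (SE, edgeR adjusted p = 0.02), while its neighbour and relative Ccl2 did not pass (-2.49 ± 0.60, SE, edgeR adjusted p = 0.212). Cxcl13 stood at 5.7 to 11.3 CPM (median 7.6) with saline alone, at 23.9, 26.6, 56.1, 32 and 19.3 CPM with PM alone, at 42.7 to 72 CPM (median 66.3) with OVA alone and at 46.3, 83.3, 40.2, 77.4 and 42.2 CPM with both. The joint group overlapped with OVA alone, and it lay above 4 of the 5 libraries of PM alone, the exception being that at 56.1 CPM. Its interaction was -2.03 ± 0.34 (SE, edgeR adjusted p = 0.0115).

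Irg1 (103046977 to 103056573 on chromosome 14) makes itaconate, an antimicrobial metabolite of activated macrophages, and Tnf (35199381 to 35202007 on chromosome 17) encodes an inflammatory cytokine of the same cells. Irg1 stood at 0 to 0.365 CPM (median 0.235, 17 counts over 6 libraries) with saline alone and at 5.24, 3.22, 7.13, 7.29 and 3.69 CPM with PM alone. It stood at 1.97 to 3.48 CPM (median 2.89) with OVA alone and at 3.02, 1.49, 10.1, 6.86 and 1.89 CPM with both. The 2 high libraries of the joint group were the shallow replicates 4 and 5, of which replicate 4 held 3 counts. The interaction was -4.66 ± 0.53 (SE, edgeR adjusted p = 2.6e-05). Tnf had means of 2.21, 5.71, 4.91 and 3.96 CPM in the same order of groups, and an interaction of -1.82 ± 0.36 (SE, edgeR adjusted p = 0.0366).

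Of 20 measured NF-kB cytokine and chemoattractant genes, 6 were called for the interaction and 19 lay below 0, with a median of -1.46. This list, too, was chosen with earlier results of these data known. Of all genes tested, 0.0937% were called and 48.3% lay below 0. PM raised 15 of the 20 in the saline arm and 1 (Cxcl3) in the OVA arm, beside 4.56% and 3.85% of all genes tested. The count of 1 was 3 without the libraries under 2 M and 0 without the 2 libraries low in mucous cell genes. OVA raised 14 without PM and 3 with PM, and lowered 2 with PM, beside 15.1%, 10.8% and 6.57% of all genes tested. The members far from the threshold included the feedback inhibitors Nfkbia (-0.08) and Tnfaip3 (-0.18), the adhesion molecule gene Icam1 (-0.14), the interleukin 1 genes Il1a (-0.11) and Il1b (-0.18) and the prostaglandin synthase gene Ptgs2 (0.32), each with an adjusted p of 1 by edgeR. For Il1b the effects of PM in the 2 arms were 0.76 ± 0.20 and 0.58 ± 0.21 (SE, edgeR adjusted p = 0.0192 and 0.0661). Of 11 measured neutrophil marker genes, 0 were called for the interaction, with a median of -0.35, and their summed level was 295 to 590, 407 to 539, 315 to 788 and 529 to 686 CPM in the same order of groups, with Stfa1 listed at 0. S100a8, which neutrophils hold at high levels, had an interaction of 0.14 ± 0.39 (SE, edgeR adjusted p = 1). The part of neutrophil numbers in the chemokine results was not tested.

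**Figure D3:**
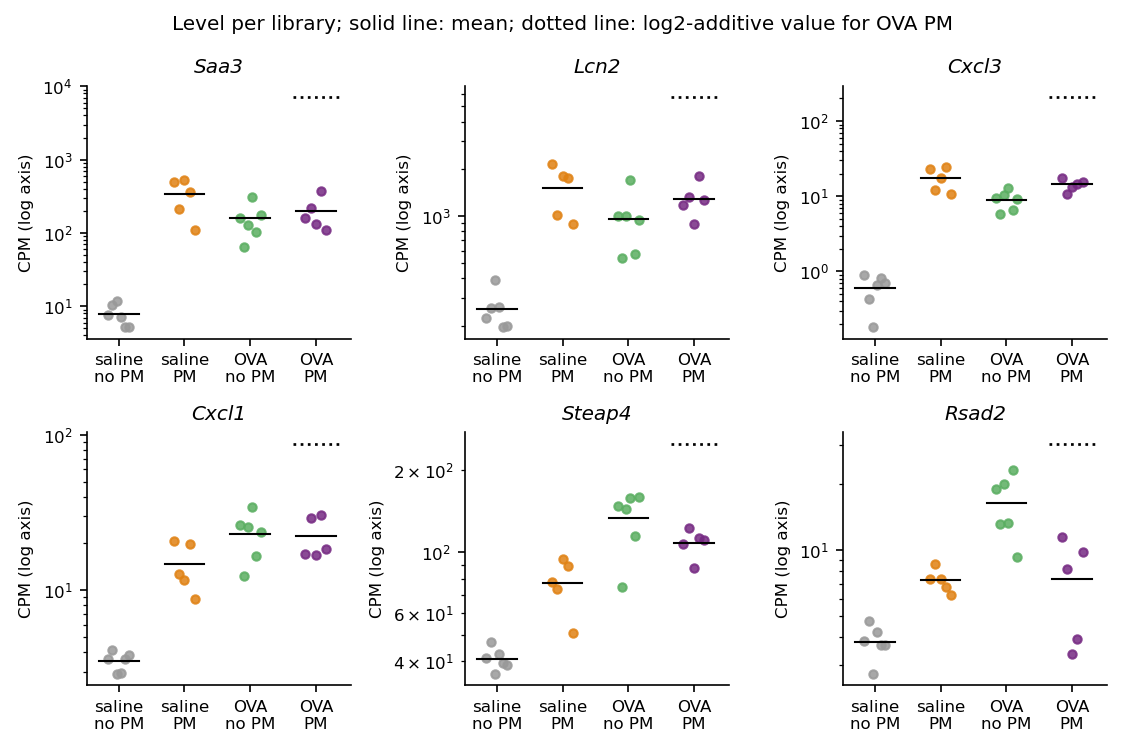
Level of 6 called genes in each library in CPM (logarithmic axis) by group, with the group mean as a solid line and the value expected in OVA with PM if the separate fold changes multiplied as a dotted line. In Saa3, Lcn2, Cxcl3, Cxcl1 and Steap4 the joint group stands among the single-exposure groups, and in Rsad2 (mean 7.35 CPM) it stands beside PM alone (7.29 CPM) and below OVA alone (16.3 CPM).

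Rsad2 showed another shape. It encodes viperin, an antiviral enzyme and a usual marker of the interferon response (26442746 to 26456452 on chromosome 12). It stood at 2.74 to 4.76 CPM (median 3.76) with saline alone and at 7.39, 8.6, 7.42, 6.79 and 6.23 CPM with PM alone. It stood at 9.31 to 23.2 CPM (median 16.1) with OVA alone and at 11.5, 8.17, 3.35, 3.92 and 9.79 CPM with both. PM went with a higher level in the saline arm (0.91 ± 0.22, SE, edgeR adjusted p = 0.0142) and a lower level in the OVA arm (-0.83 ± 0.21, SE, edgeR adjusted p = 0.0218), and the interaction was -1.73 ± 0.30 (SE, edgeR adjusted p = 0.014). The lowest values of the joint group, 3.35 and 3.92 CPM, were 1 and 4 counts in the shallow replicates 4 and 5. Without the 3 libraries under 2 M counts the effect in the OVA arm was -0.78 ± 0.22 (SE, edgeR adjusted p = 0.0213) and the interaction -1.68 ± 0.30 (SE, edgeR adjusted p = 0.0371).

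Of 24 measured interferon-stimulated genes, 1 (Rsad2) was called for the interaction and 24 lay below 0, with a range of -1.73 to -0.28 and a median of -0.67. Of all genes tested, 0.0937% were called and 48.3% lay below 0. PM raised 3 of the 24 in the saline arm (Rsad2, Ifit3 and Zbp1), where 4.56% of all genes tested rose. It lowered 12 in the OVA arm, where 7.04% of all genes tested fell. The count of 3 was 1 with the closest saline libraries summed and 2 with library totals or the length and GC offset on genes from 1 CPM. OVA without PM raised 22, and OVA on top of PM raised 9, beside 15.1% and 10.8% of all genes tested. The 12 genes lowered by PM in the OVA arm included Oas3, which makes the signal for RNA decay (-1.29 ± 0.26, SE, adjusted p = 0.0105), Oasl2, an antiviral relative of it (-0.96 ± 0.15, SE, adjusted p = 0.00445), and Irf7, a transcription factor of the response (-0.79 ± 0.19, SE, adjusted p = 0.016), all by edgeR. The count of 12 was 8 without the 2 libraries low in mucous cell genes, 14 without the libraries under 2 M and 19 with scaling by library totals. Zbp1, a sensor of nucleic acids, and Oasl2 had interactions of -0.95 ± 0.20 and -0.84 ± 0.20 (SE, edgeR adjusted p = 0.0903 and 0.192). Zbp1 was called in 10 of 35 alternatives and Oasl2 in 2 of 35. Among 20 targets of interferon gamma, 0 were called, 18 lay below 0, and the values ran from -2.56 to 0.22 with a median of -0.29.

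**Figure D4:**
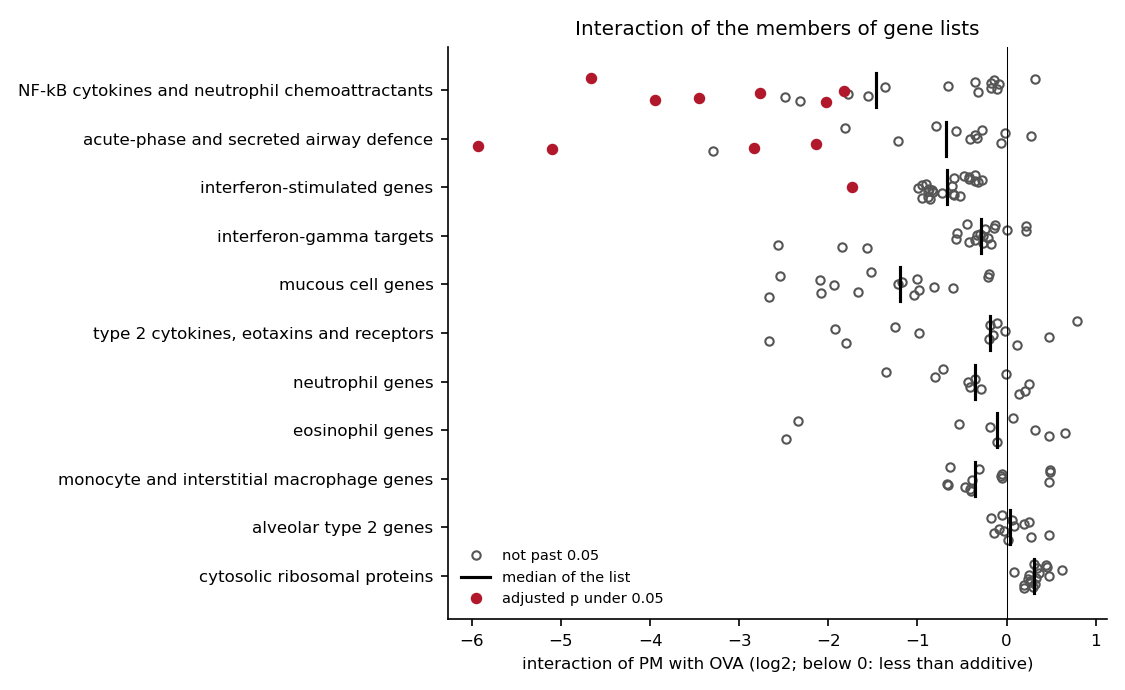
Interaction of PM with OVA (log2, horizontal axis) of each measured member of 11 gene lists, with members called at an adjusted p of 0.05 filled in red and the list's median as a vertical bar. Filled points lie in the NF-kB and chemoattractant list (6 of 20), the acute-phase and airway defence list (4 of 16) and the interferon-stimulated list (1 of 24), and the ribosomal protein genes lie on the other side of 0 (median 0.31). Of all genes tested, 0.0937% were called. The lists were chosen with earlier results of these data known, so that these counts are no further test.

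Genes of the allergic programme gave no call by edgeR with all libraries. The SEs of those named in full ran from 0.41 (Ccl8) to 1.25 (Chil4), beside 0.23 (Steap4) to 0.96 (Orm2) among the called genes. Of 16 measured mucous cell genes 0 were called, and 16 lay below 0 with a median of -1.20, while 48.3% of all genes tested lay below 0. OVA raised 16 without PM and 15 with PM, beside 15.1% and 10.8% of all genes tested. PM raised 4 in the saline arm and 0 in the OVA arm, beside 4.56% and 3.85%, so that the 0 lies near its share. The count of 4 was 9 without the 2 OVA libraries low in these genes and 1 with the closest saline libraries summed. Muc5ac, the main inducible airway mucin, stood at 0.518 to 2.55 CPM (median 1.23) with saline alone and at 2.29, 1.95, 9.8, 10.6 and 4.02 CPM with PM alone. It stood at 20.9 to 264 CPM (median 189) with OVA alone and at 143, 168, 10.1, 164 and 94.2 CPM with both. The low values of 20.9 and 10.1 CPM belonged to the 2 libraries that stood apart. The interaction was -2.67 (95% interval -4.35 to -0.98, edgeR adjusted p = 0.687), and without those 2 libraries it was -2.78 ± 0.53 (SE) and passed (edgeR adjusted p = 0.0295). It also passed without only replicate 2 of OVA alone (-2.91, edgeR adjusted p = 0.0405).

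The other genes of this programme that were looked at did not pass by edgeR. Clca1, a secreted regulator of mucous cells, had an interaction of -2.08 (95% interval -4.46 to 0.31), Retnla, a marker of alternatively activated macrophages, of -2.60 (-4.17 to -1.03), and the type 2 cytokine gene Il13 of -2.67 (-5.15 to -0.18, with 3 counts over the 6 libraries of saline alone). The eotaxin gene Ccl11 and the chemokine gene Ccl8 had -1.25 (-2.25 to -0.25) and -1.50 (-2.36 to -0.65). The chitinase-like genes Chil4 and Chil3 had -1.39 (-3.97 to 1.19) and -0.01 (-1.68 to 1.66). On the linear scale the sign was the other way for 6 of them. In CPM, the difference made by PM was larger in the OVA arm than in the saline arm by 402 ± 1670 for Clca1, 1960 ± 3219 for Retnla, 124 ± 85 for Ccl8, 0.591 ± 0.955 for Il13, 309 ± 323 for Chil4 and 6502 ± 4851 for Chil3 (SE, no test). With limma voom, Retnla (-3.45, adjusted p = 0.0248) and Ccl8 (-1.74, adjusted p = 0.0299) passed on the log2 scale. For the 14 called genes the linear scale gave the same sign as the log2 scale, again without a test. The SE was large beside the linear value for Irg1 (-3.23 ± 1.87 CPM), Ccl7 (-5.63 ± 3.05), Cxcl5 (-24.1 ± 12.3) and Cxcl13 (-26.5 ± 12.4). The other called genes lay more SEs from 0.

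Genes of dioxin-like and hormonal responses were also given. Cyp1a1, which ligands of the aryl hydrocarbon receptor induce, had an interaction of 0.83 ± 0.28 (SE, edgeR adjusted p = 0.878) and was not called for PM in the saline arm (-0.47, edgeR adjusted p = 0.0947) or the OVA arm (0.36, edgeR adjusted p = 0.249). Of 11 glucocorticoid-responsive and metallothionein genes only Lcn2, named above, was called, and the list's median was 0.31. Sgk1, a kinase of salt transport, and the clock gene Per1 had 0.31 ± 0.15 and 0.76 ± 0.47 (SE, edgeR adjusted p = 1 for both). Cytosolic ribosomal protein genes gave 0 calls, with 17 of 17 above 0 and a median of 0.31, while 48.3% of all genes tested lay below 0.

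**Figure D5:**
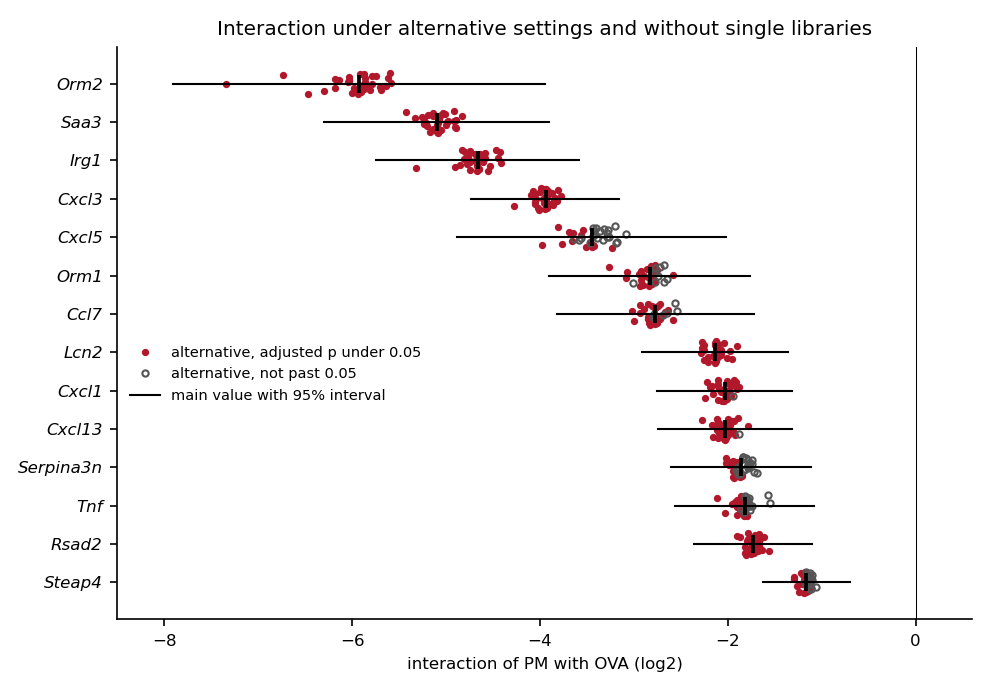
Interaction of the 14 called genes (log2, horizontal axis) with its 95% interval (line), and the value in each alternative setting and without each single library (points, filled in red where the adjusted p was under 0.05). The points of each gene lie within its interval and below 0, and Cxcl3, Irg1, Saa3, Orm2, Rsad2 and Lcn2 were called in all alternatives that tested them.

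Across the alternatives, 6 of the 14 genes were called wherever they were tested. These were Saa3 and Lcn2 (35 of 35), and Orm2, Irg1, Cxcl3 and Rsad2 (33 of 33). Cxcl1 and Cxcl13 were called in 34 of 35, Ccl7 in 27 of 33 and Orm1 in 24 of 33. Tnf (17 of 33), Serpina3n (15 of 35), Steap4 (15 of 35) and Cxcl5 (14 of 35) missed the threshold in many alternatives. All 14 stayed below 0 in all of these.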

How the data were processed

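The authors deposited raw read counts per gene in 3 tables, which were joined on the gene symbol. The 12 libraries present in 2 tables were identical in 12 of 12 cases. Per the labels, polyadenylated RNA was made into stranded libraries and read from 1 end. The submitters' processing notes name bcl2fastq and mm10, and the aligner and counter are not given in the sources used here. Of 24421 gene rows, 16 with names turned into dates (0.152% to 0.195% of counts) were left out. Positions were matched by name to GENCODE M21 (24029 of 24405).

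All 22 libraries entered 1 edgeR quasi-likelihood fit of 4 group means (TMM scaling, expression filter with minimum count 10 and minimum total 15, Benjamini-Hochberg threshold 0.05). Standard errors are the log2 value divided by the square root of F, and intervals are 95%. The count depth limits low genes most, above all in the 3 libraries under 2 M. On simulated counts (14872 genes, 200 of them changed) the interaction recovered 76% of genes changed by log2 1 and 95% of those changed by log2 2, with 5 false calls among 176. The changed genes all averaged 1 CPM or more, and counts were drawn independently around group means, without outlying libraries. With 200 changed genes the adjusted threshold is also easier to pass than with the 14 calls here. Recovery in the measured data may therefore be lower.

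Genes named in full were the 15 largest called interactions each way (genes averaging 1 CPM or more), the 3 members of lowest p in each list with a call (8 lists at most), and 14 fixed genes. Other members of such lists were chosen after their values were seen. Members and lists were chosen with earlier results of these data known. Alternatives were DESeq2, its size factors, library totals, no filter, 1 CPM in 5 libraries, limma voom with quality weights, no libraries under 2 M, a length and GC offset (genes from 10 CPM), a replicate block, both together, CPM differences, and leaving out each library. Chosen after seeing the data were the offset from 1 CPM, leaving out the 2 OVA libraries low in mucous cell genes, and summing the closest pair of saline libraries. The software was R 4.3.3, edgeR 4.0.16, limma 3.58.1, DESeq2 1.42.0, Python 3.11.15, pandas 2.3.3, numpy 2.4.6, scipy 1.17.1 and matplotlib 3.10.9.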

Additional observations from a re-analysis of the deposited data

Results flagged for a closer look

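The effect of PM differed between the arms, by the edgeR interaction test, for the 14 called genes, with log2 differences (OVA arm minus saline arm) of -5.93 for Orm2, -5.10 for Saa3, -4.66 for Irg1, -3.94 for Cxcl3, -3.45 for Cxcl5, -2.83 for Orm1, -2.77 for Ccl7, -2.14 for Lcn2, -2.03 for Cxcl1, -2.03 for Cxcl13, -1.86 for Serpina3n, -1.82 for Tnf, -1.73 for Rsad2 and -1.17 for Steap4.

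Single libraries lay far from the rest of their group by Dixon's criterion in 14 of 112 gene and group pairs (12.5%). Chance gives about 1 in 20 where values are normally distributed. CPM values, some of them at a few counts, need not be, so that 12.5% cannot be read as an excess. With saline alone, replicate 3 was the highest for Lcn2 (390 CPM, next 263), Retnla (458, next 186), Chil3 (1077, next 473) and Chil4 (14.2, next 5.55). In the same group, replicate 4 was the highest for Tnf (3.59 CPM, next 2.29) and the lowest for Ccl7 (0, next 0.655), replicate 5 was the highest for Orm2 (0.201, next 0.0438) and replicate 2 for Il13 (0.122, next 0.0438). With OVA alone, replicate 4 was the highest for Sgk1 (243 CPM, next 195) and Chil3 (20401, next 8091), and replicate 1 for Cyp1a1 (13.3, next 9.02). In the joint group, replicate 5 was the highest for Cxcl5 (60.8 CPM, next 20.7), and replicate 4 was the lowest for Retnla (2072, next 13362) and the highest for Cyp1a1 (16.8, next 11.6). Replicates 4 and 5 of the joint group and replicate 4 of OVA alone hold under 2 M counts, and the part of depth in these values was not tested.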

How the results depend on the processing

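The interaction called 14 genes, all below additive. The count was 24 (24 below) with DESeq2, 45 (43 below, 2 above) with limma voom, 5 (5 below) with the length and GC offset on 10782 genes of which 7 of the 14 were tested, and 4 (4 below) with offset and replicate block. Without the 2 OVA libraries low in mucous cell genes it was 22 (22 below). Leaving out each library gave 8 to 27, with 8 to 26 below and 0 to 1 above. PM in the saline arm called 5060 genes with voom, 607 with the offset, 668 with the offset from 1 CPM, 3660 with the replicate block, 461 with the closest saline libraries summed and 376 to 3337 without single libraries. PM in the OVA arm called 2513 with library totals, 4613 with voom, 2688 without libraries under 2 M, 799 and 784 with the offset from 10 and from 1 CPM, 3389 with the block, 879 without the 2 OVA libraries and 340 to 3387 without single libraries. OVA called 6362 (without PM) and 4102 (with PM) with voom, and 3258 to 4771 and 1701 to 2816 without single libraries. Library totals moved the median interaction of all genes from 0.01 to -0.08. The cause of these shifts was not tested.

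Replicate numbers shared across groups were not used as pairs in the main fit. Of 30 same-numbered pairs 9 correlated above 0.1, as did 39 of 151 differently numbered pairs. Only 2 of 22 libraries correlated best with their own number. Since both kinds of pair correlated alike by this count, these values cannot decide whether samples were paired. The largest correlations joined libraries without PM. Replicates 5 and 6 of saline alone correlated at 0.722 and 0.73 with replicate 5 of OVA alone. Replicates 3 and 4 of saline alone correlated at 0.717 and 0.634 with replicate 4 of OVA alone. Between these sets values fell as low as -0.73, and the cause was not tested. The replicate block gave 12 interaction calls, 10 of them among the 14.

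On the linear CPM scale the sign turned for Clca1 (402), Retnla (1960), Ccl8 (124), Il13 (0.591), Chil3 (6502) and Chil4 (309). Chil3, at -0.01, was 0.91 without libraries under 2 M, 0.22 with the block, 0.17 with block and offset, 0.02 without the 2 OVA libraries, 0.12 with the saline libraries summed and -0.48 to 0.62 without single libraries. S100a8, at 0.14, was -0.03 with voom, -0.02 without replicate 4 of saline alone, -0.01 without replicate 5 of OVA alone and -0.02 to 0.37 over all single libraries left out.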
